A study of Mus musculus with 4 samples.

Results

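The nuclear genes for the mitochondrial respiratory chain and ATP synthase were examined in the Peyer's patch (PP) cells and the intestinal epithelial cells (IEC) of germ-free (GF) mice and of mice colonized with Lactobacillus NK318.1. A gene was taken as a member if its symbol starts with Ndufa (but not Ndufaf), Ndufb, Ndufc, Ndufs, Ndufv, Uqcr, Cox4i, Cox5, Cox6, Cox7, Cox8 or Atp5, or is Sdha, Sdhb, Sdhc, Sdhd or Cycs. On the arrays, 173 probe sets annotated to a single gene stood for 83 such genes, of 34945 probe sets and 18193 genes in all. The members comprised 34 genes of complex I, 4 of complex II, 8 of complex III, the cytochrome c gene, 19 genes of complex IV and 17 of complex V. The mice were C57BL/6 animals kept in vinyl isolators, and the colonized ones had received 100000000 bacteria of this strain and no other, with both cell preparations taken 2 weeks later. GF mice of the same strain, given no bacteria, were the controls for both preparations. Total RNA of each of the 4 groups was labelled from 6 µg and hybridized to 1 Affymetrix 3′ array, and the legends of the study describe the samples as pooled, so no spread between mice can be given. Every difference below is therefore a ratio of 2 arrays without a test.

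The respiratory chain passes electrons from NADH (complex I) and succinate (complex II) through ubiquinone, complex III and cytochrome c to oxygen at complex IV, and the proton gradient built on the way drives the ATP synthase, complex V. Most subunits are encoded in the nucleus, translated in the cytosol and imported, while the core of complexes I, III, IV and V also needs subunits encoded by mitochondrial DNA. Absorptive epithelial cells of the gut are rich in mitochondria, whereas the resting lymphocytes that make up most of a Peyer's patch have little cytoplasm.

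Median signals of the 4 arrays lay between 23.0 and 23.3, and 59.1% to 61.0% of probe sets lay over the floor of 15.5, below which signals were raised to it. Ptprc, which encodes the leukocyte antigen CD45, had signals of 5152 and 5235 in GF and colonized PP and of 271 and 23.1 in GF and colonized IEC, and Fabp1, a lipid carrier of enterocytes, had 35.3, 43.5, 6604 and 4666 in the same order. The colonized IEC array stood apart in the cell types it held. Summed signals of 19 enterocyte genes were 46948 in GF and 30555 in colonized IEC, those of 14 genes of intraepithelial cytotoxic lymphocytes were 5851 and 501, those of 10 gastric mucosa genes were 434 and 36054, and those of 12 pancreatic acinar genes were 1795 and 13038. Signal at the 3′ end of β-actin over that at the 5′ end, a measure of RNA breakdown, was 1.60 and 1.74 in GF and colonized PP and 2.73 and 4.10 in GF and colonized IEC. The pools also differed in sex-linked genes, since Xist was at 21.7 and 46.7 in the GF arrays and at 4586 and 4889 in the colonized arrays, and the Y-linked Kdm5d was at 165 and 90.6 against 2.27 and 5.46. Colonization, sex and, in both tissues, the makeup of the preparation cannot be told apart in these arrays, and in bulk RNA fewer cells of a type cannot be told apart from less RNA per cell.

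The members were measured broadly in both tissues. Of the 83 genes, 78 had signals over the floor on all 4 arrays, and 3 lay under it on all 4, namely Ndufb4, the testis isoform Cox7b2 and the muscle isoform Cox8b. The single-gene probe set of Ndufb4 gave only 5.80 to 7.07, while 2 probe sets shared by Ndufb4 and its near-identical copies gave 415 to 1122. Cox7a1 lay over the floor in IEC alone. Because probe sets bind with different strength, signals of different genes were not compared as amounts of RNA.

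**Figure D1:**
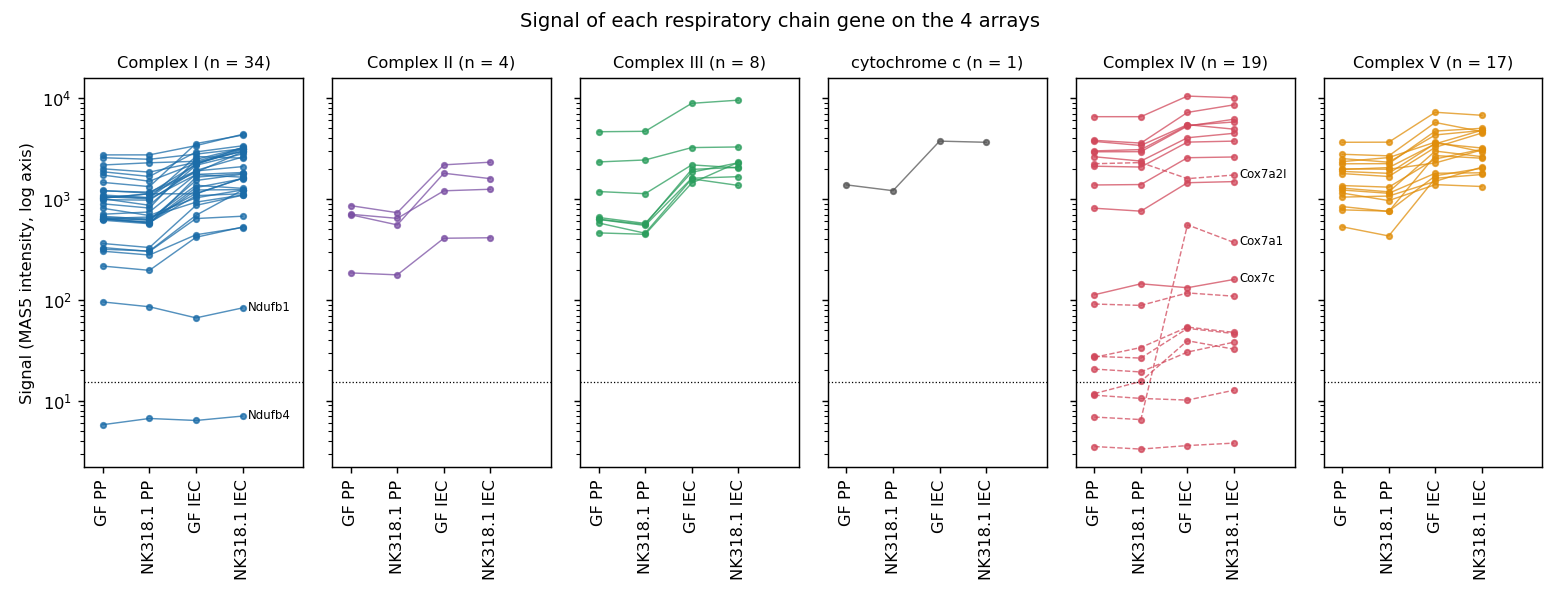
Signal of each member on the 4 arrays, by complex (log axis, MAS5 intensity); each line is a gene, dashed lines are isoforms of special tissues and Cox7a2l, and the dotted line is the floor of 15.5. Most lines run higher in IEC than in PP, Cox7a1 leaves the floor only in IEC, and Cox7a2l and Ndufb1 are lower in IEC than in PP in GF mice.

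To ask how colonization related to these genes, colonized and GF signals were compared within each tissue. In PP, 79 members were measured and none was apart by 2-fold or by 1.5-fold in either direction. Of all 12737 genes measured there, 0.149% were at least 2-fold higher, 0.573% at least 2-fold lower, 0.926% at least 1.5-fold higher and 2.74% at least 1.5-fold lower in colonized mice. The log2 ratio of colonized over GF was above 0 in 20 members and below 0 in 59, against 42.5% of all genes above 0. The median over members was −0.084, from −0.34 for Uqcrfs1 to 0.36 for Cox7c, and that over all genes was −0.033 with quartiles at −0.17 and 0.090. The shift of the members was thus small in size and most of them lay within the middle range of all genes. Markers of other cell types in the patch also differed between the PP arrays. Of the measured markers, 10 of 10 fibroblast genes, 12 of 13 macrophage genes and 9 of 9 crypt proliferation genes, which also mark dividing lymphocytes, lay below 0, with medians of −0.76, −0.42 and −0.38. Their summed signals in GF and colonized PP were 1088 and 794 for fibroblasts, 7500.4 and 5844 for macrophages and 7819 and 6423 for proliferation. Among B cell genes 12 of 13 lay below 0 with a median of −0.14, and among T cell genes 14 of 15 lay above 0 with a median of 0.23. The part of these differences in the ratios of the members in PP was not tested.

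In IEC, most members lay above 0. Of 80 measured members, 59 had a log2 ratio above 0, against 52.4% of 13875 genes, and 21 were below 0. None was apart by 2-fold, where 2.63% of all genes were higher and 1.54% lower. At 1.5-fold, 3 members were higher (Ndufa5, Ndufb7 and Uqcr11) and none lower, where 9.31% of all genes were higher and 6.8% lower, so the members held fewer large ratios than genes at large. The median over members was 0.12 with quartiles at −0.042 and 0.33, and that over all genes was 0.019 with quartiles at −0.23 and 0.28. Bright probe sets at large also lay above 0 in IEC. Over all probe sets the median was 0.097 above a mean signal of 2048 and 0.0032 between 512 and 2048, and members lay in both ranges. With a lowess curve of ratio against signal taken out, the medians were 0.13 over members and 0.0034 over all genes. In the colonized IEC array, enterocyte, lymphocyte, gastric and acinar genes and the 3′ to 5′ ratios differed as given above. Fibroblast genes were higher there too, with a median of 1.16 and 9 of 10 at least 1.5-fold higher, and their summed signals were 574 in GF and 1625 in colonized IEC. Smooth muscle genes had a median of 0.45, with 9 of 10 above 0 and sums of 855 and 1068, and crypt proliferation genes lay above 0 in 12 of 13 cases, with sums of 7658 and 9821. The part of these differences in the ratios of the members in IEC was not tested.

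**Figure D2:**
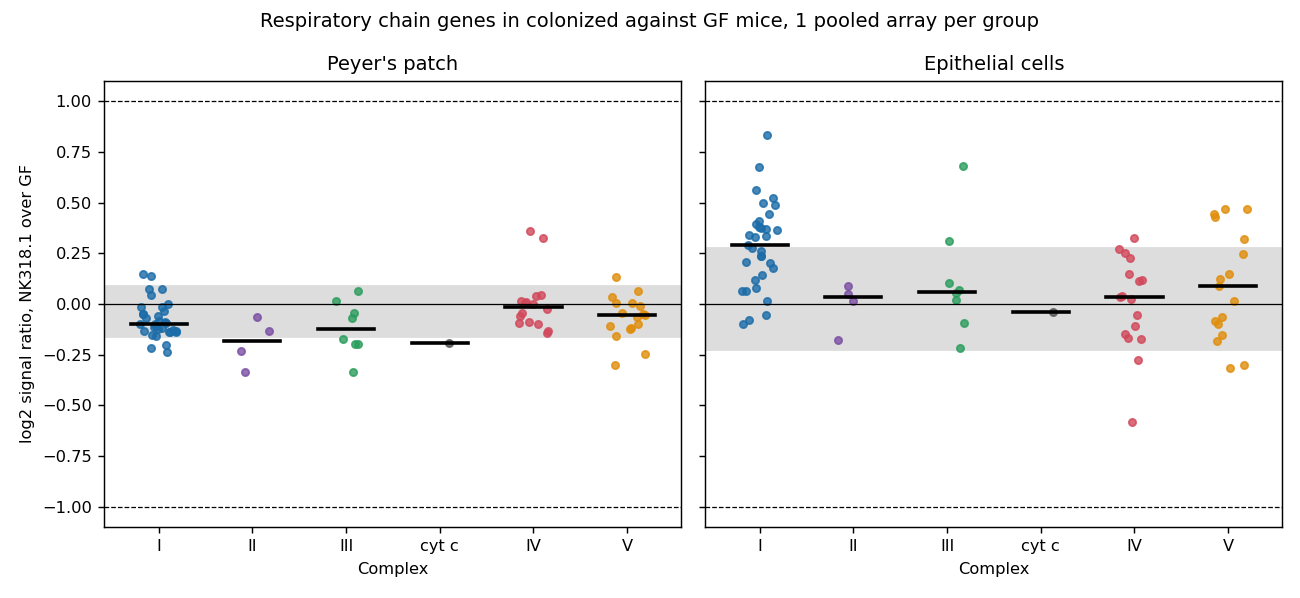
log2 signal ratio of colonized over GF mice for each measured member, by complex, in PP (left) and IEC (right); black bars are medians, the grey band spans the quartiles of all measured genes and dashed lines mark 2-fold. Complex I lies mostly below 0 in PP (median −0.098) and above 0 in IEC (median 0.29).

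As a scale for single values, 2 measured probe sets of the same gene differed in their log2 ratio by a median of 0.16 over all genes in PP and 0.30 in IEC, and by 0.080 and 0.20 among the members. Over every measured probe set of the members, and not only the brightest of each gene, 116 of 159 lay below 0 in PP and 117 of 161 above 0 in IEC. Among the further probe sets of a gene, 60 of 80 had the sign of the brightest one in PP and 58 of 81 in IEC.

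Complex I, the NADH dehydrogenase, stood furthest from 0 in IEC. Of its 33 measured genes, 30 were above 0 in IEC with a median log2 ratio of 0.29, while 27 were below 0 in PP with a median of −0.098. Its 6 core subunits that were measured carry the flavin and iron-sulfur clusters or hold them in place. By the brightest probe set, all 6 were above 0 in IEC, with a median of 0.26, and all 6 were below 0 in PP, with a median of −0.12. The 27 measured supernumerary subunits, which surround the core, had medians of 0.29 and −0.094, with 24 above 0 in IEC and 21 below 0 in PP.

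The core subunit Ndufv2, an iron-sulfur protein of the NADH-binding module, had signals of 1061 and 1025 in GF and colonized PP and of 2208 and 3099 in GF and colonized IEC. Its neighbours in that module differed less, with Ndufv1, which binds flavin and NADH, at 1645 and 1788 in IEC and Ndufs1 at 639.7 and 675. In the module that hands electrons to ubiquinone, Ndufs7 had 1916 and 2605 in IEC and Ndufs8 had 2257 and 2971, while Ndufs3 had 1077 and 1127. The log2 ratios in IEC were thus 0.49 for Ndufv2, 0.44 for Ndufs7 and 0.40 for Ndufs8, against 0.12 for Ndufv1, 0.077 for Ndufs1 and 0.065 for Ndufs3. The further probe sets of Ndufv2, Ndufs7 and Ndufs8 gave lower ratios but for 1 of Ndufs8, whose 5 further probe sets spread from 0.044 to 0.54. Those of Ndufv1 gave 0.15 and −0.12, so its direction in IEC was not settled.

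Among supernumerary subunits, Ndufa5 of the matrix arm was the furthest from 0. Its signals were 317.6 and 305 in GF and colonized PP and 689 and 1226 in GF and colonized IEC, a 1.78-fold difference in IEC, where its other probe set gave a log2 ratio of 0.46 beside 0.83. Ndufb7, a subunit of the membrane arm, had 1022 and 1126 in PP and 1837 and 2932 in IEC, and its probe sets gave log2 ratios of 0.67 and 0.63 in IEC. Both genes were thus higher in colonized IEC by each of their probe sets, and both lay within 0.14 of 0 in PP. The lowest in IEC were Ndufa9 at 1365 and 1273 and Ndufa6 at 1739 and 1644, with log2 ratios of −0.10 and −0.081. Ndufab1, the mitochondrial acyl carrier protein, had −0.054 by its brightest probe set and 0.43 by the next, so its direction was not settled. In PP, Ndufa7 (−0.24) and Ndufc1 (−0.22) were the lowest of the complex and Ndufa2 (0.15) and Ndufb7 (0.14) the highest. The X-linked members Ndufa1 and Ndufb11 had log2 ratios of −0.051 and 0.00051 in PP, and of 0.18 and 0.37 in IEC, where Xist differed as given above.

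**Figure D3:**
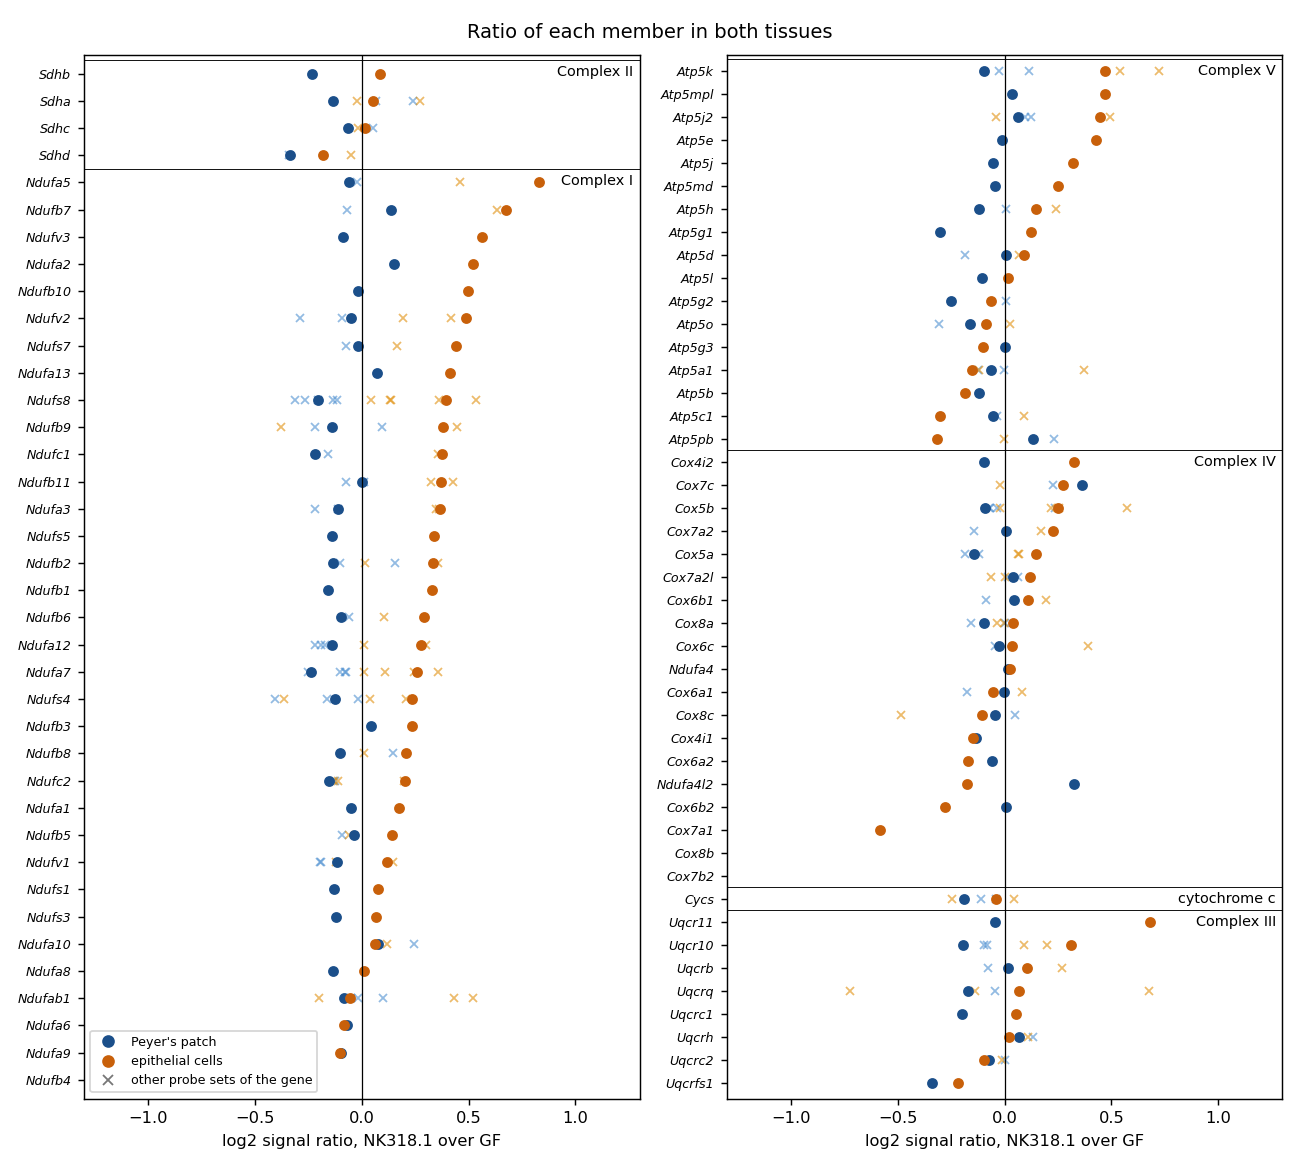
log2 signal ratio of colonized over GF mice for every member in PP (blue) and IEC (orange), sorted within each complex by the IEC value; filled points are the brightest probe set of a gene and crosses its other probe sets over the floor, and genes without a point were under the floor. Ndufa5, Uqcr11 and Ndufb7 reach 0.83, 0.68 and 0.67 in IEC, and Cox7a1 lies at −0.58.

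Complex II, succinate dehydrogenase, has all its subunits encoded in the nucleus and also serves the citric acid cycle. By the brightest probe sets, its 4 genes had a median log2 ratio of −0.18 in PP, all below 0, and of 0.034 in IEC. Over all 8 measured probe sets, 3 were above 0 in PP and the median there was −0.0995. Sdhd, a membrane anchor, had signals of 698 and 553 in GF and colonized PP and of 1798 and 1589 in GF and colonized IEC, and its other probe set gave −0.34 in PP beside −0.33. Sdhb, the iron-sulfur subunit, had 858 and 731 in PP and 2177 and 2314 in IEC. The flavoprotein Sdha had 705 and 642 in PP and 1204 and 1248 in IEC, although a second bright probe set gave 0.068 in PP in place of −0.13. The anchor Sdhc had 185 and 177 in PP and 408 and 413 in IEC, and its other probe set gave 0.055 in PP beside −0.064. Sdhd was thus lower in colonized PP by both probe sets. In IEC its probe sets gave −0.18 and −0.050, within the median difference of 0.20 between 2 probe sets of a member. By the brightest probe set, the other genes differed by less than 0.1 in log2 ratio in IEC.

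In complex III, ubiquinol-cytochrome c reductase, 6 of 8 genes were below 0 in PP with a median of −0.12, and 6 of 8 above 0 in IEC with a median of 0.060. Uqcrfs1, the Rieske iron-sulfur protein, had signals of 578 and 458 in GF and colonized PP and of 1583 and 1361 in GF and colonized IEC, and so was the lowest gene of the complex in both tissues, by its only probe set. The core proteins Uqcrc1 and Uqcrc2 had log2 ratios of 0.052 and −0.10 in IEC and of −0.20 and −0.071 in PP. Uqcr11, a small subunit of the membrane part, had 461 and 446 in PP and 1438 and 2305 in IEC, a 1.6-fold difference in IEC from its only probe set. Uqcr10, another small subunit, had 656 and 572 in PP and 1840.2 and 2285 in IEC. The highest in PP were Uqcrh at 0.065 and Uqcrb at 0.014. Cycs, which encodes the somatic cytochrome c that carries electrons from complex III to complex IV, had 1379 and 1207 in PP and 3740.4 and 3643 in IEC, and its log2 ratios were −0.19 and −0.038. Its 3 measured probe sets were all below 0 in PP, and in IEC they ranged from −0.25 to 0.044.

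Complex IV, cytochrome c oxidase, had the median nearest to 0 in PP. In IEC it was nearest by a narrow margin, at 0.033 beside 0.034 for complex II. Without special isoforms and Cox7a2l, the median of complex IV in IEC was 0.075, further from 0 than those of complexes II and III. Its median log2 ratio was −0.014 over 16 genes in PP, with 9 below 0, and 0.033 over 17 genes in IEC, with 10 above 0. Cox5b, which binds zinc, had signals of 3808 and 3578 in GF and colonized PP and of 7201 and 8563 in GF and colonized IEC, and Cox5a had 2618 and 2373 in PP and 4040.4 and 4473 in IEC. Cox4i1, the main isoform of subunit 4, had 3718 and 3388 in PP and 5443 and 4913 in IEC, and so was lower in colonized mice in both. Cox7c had the highest ratio of all members in PP, with 112 and 144, and 132 and 159 in IEC, and its dimmer probe set gave 0.23 in PP and −0.022 in IEC. Ndufa4, once assigned to complex I and now to complex IV, had 1376 and 1389 in PP and 2563 and 2605 in IEC.

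Complex V, the ATP synthase, held genes on both sides of 0 in IEC. Over its 17 genes the median log2 ratio was −0.052 in PP, with 12 below 0, and 0.091 in IEC, with 10 above 0. In the catalytic head, the α and β subunits Atp5a1 and Atp5b and the γ subunit Atp5c1 had log2 ratios of −0.15, −0.19 and −0.30 in IEC, whereas the small subunits Atp5d and Atp5e had 0.091 and 0.43. Other probe sets gave Atp5a1 −0.12 and, from signals of 604.9 and 781 in GF and colonized IEC, 0.37, and a dim one gave Atp5c1 0.089, so their lower values rested on the brighter probe sets. In the stalk that holds the head, Atp5pb was at −0.32 and Atp5o at −0.086, while Atp5h and Atp5j were at 0.15 and 0.32. The c-ring genes Atp5g1, Atp5g2 and Atp5g3, which encode the same mature protein, had 0.12, −0.062 and −0.10. The small subunits in the membrane, Atp5k, Atp5mpl, Atp5j2, Atp5md and Atp5l, had 0.47, 0.47, 0.45, 0.25 and 0.015.

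The signals behind these extremes were as follows. Atp5pb had 2345 and 2570.2 in GF and colonized PP and 3659.7 and 2935 in GF and colonized IEC, and its second probe set gave −0.0047 in IEC, so the lower value rested on the brighter probe set. Atp5k had 1785 and 1669 in PP and 3249.6 and 4503 in IEC, and its 3 probe sets gave 0.47, 0.54 and 0.72 in IEC. Atp5mpl had 1043 and 1068 in PP and 1495 and 2069 in IEC from its only probe set. In PP, Atp5g1 (530.0 and 430.0) and Atp5g2 (1145 and 963) were the lowest of the complex.

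The level of the members in the tissues was then described by the ratio of IEC to PP in each colonization state. The arrays are the ones already compared above, so these ratios are not independent of the ratios of colonized to GF mice. In GF mice, 29 of 80 measured members were at least 2-fold higher in IEC and none was 2-fold lower, where 16% of 14036 genes were higher and 18.5% lower. In colonized mice, 43 of 80 were at least 2-fold higher and again none lower, where 18.4% of 14031 genes were higher and 16.8% lower. The log2 ratio was above 0 in 78 of 80 members in each state, against 51.8% of all genes in GF and 55.8% in colonized mice. Medians over members were 0.89 and 1.03, and those over all genes 0.038 and 0.11.

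The median of each complex was above 0. In GF mice the median log2 ratios were 0.86 for complex I, 1.24 for complex II, 1.40 for complex III, 1.44 for Cycs, 0.84 for complex IV and 0.88 for complex V, and in colonized mice 1.16, 1.37, 1.59, 1.59, 0.91 and 1.04. Apart from Cox7a1, the highest in GF mice were Atp5o, which links the stalk to the head of the ATP synthase, with a log2 ratio of 1.68, and Uqcr11 with 1.64. In colonized mice Uqcr11 had 2.37, Atp5g1 2.02 and Ndufa5 2.01. At the other end, Cox7a2l, which encodes a factor for the assembly of supercomplexes and no regular subunit, had signals of 2234 and 2293 in GF and colonized PP and of 1589 and 1727 in IEC. Ndufb1, a small subunit of complex I with a single dim probe set, had 95.5, 85.5, 66.3 and 83.3 in the same order. These were the members lower in IEC than in PP, and Ndufb1 was near parity in colonized mice, at −0.037.

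**Figure D4:**
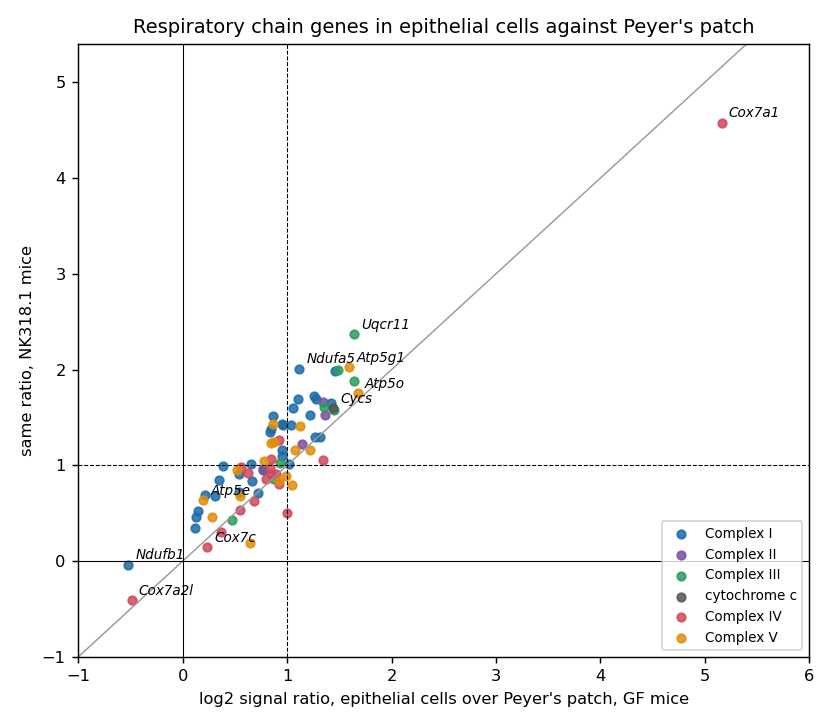
log2 signal ratio of IEC over PP for each measured member in GF mice (x axis) and in colonized mice (y axis), by complex; the diagonal marks equal ratios and dashed lines 2-fold. All members but Cox7a2l and Ndufb1 lie above 0 in both states, and Cox7a1, at 5.16 and 4.58, is a lower bound because its PP signals were under the floor.

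Several members exist as a widely used form and a form of special tissues. Cox7a1 is the isoform of heart, skeletal muscle and brown fat, and Cox7a2 the form used elsewhere. Cox7a1 had signals of 6.91 and 6.52 in GF and colonized PP, under the floor, and of 554 and 371 in GF and colonized IEC. It was at least 35.7-fold higher in IEC than in PP in GF mice and at least 23.9-fold higher in colonized mice, and it had the lowest ratio of all members between colonized and GF IEC, −0.58. Cox7a2 had 2932, 2941, 5269 and 6167, with a tissue ratio of 0.85 in GF mice beside the 0.84 of complex IV. Markers of the tissues in which Cox7a1 is best known were mostly low. Among 14 striated muscle genes, whose summed signals were 231, 217, 438 and 373, creatine kinase Ckm was at 26.1, 25.7, 27.4 and 30.1 and myoglobin Mb at 16.7, 15.7, 21.7 and 18.9, while skeletal actin Acta1 was at 18.6, 17.3, 193 and 127. Ucp1, which defines brown fat, was under the floor on all 4 arrays, at 8.25 to 13.3. The part of muscle in the Cox7a1 signal was not tested.

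The other special isoforms were dim. Cox6a2 of muscle had signals of 27.6, 26.5, 52.2 and 46.4 in GF PP, colonized PP, GF IEC and colonized IEC, beside 6533, 6531, 10451 and 10059 for its partner Cox6a1. Cox4i2, best known from lung, had 20.6, 19.3, 30.4 and 38.1, the testis isoform Cox6b2 had 11.8, 15.6, 39.4 and 32.5, and Cox8c, also of testis, had 91.0, 88.2, 117 and 109. Ndufa4l2, the hypoxia-induced relative of Ndufa4, had 27.0, 33.8, 53.8 and 47.7. All of these were higher in IEC than in PP in both states by the brightest probe set. A dimmer probe set of Cox8c gave 0.43 in GF mice but −0.11 in colonized mice. The partners Cox6b1 and Cox8a had tissue ratios of 0.84 and 0.84 in GF mice. Among the c-ring genes, Atp5g1 differed between tissues by 1.60 and 2.02 in GF and colonized mice, Atp5g3 by 0.99 and 0.88, and Atp5g2 by 0.28 and 0.46.

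Promoters were searched for motifs of factors known for nuclear respiratory genes, and the windows are shown for the genes that stood out above. RefSeq windows (GRCm38.p6, from 250 bases before to 50 bases after a gene's start, on the gene's strand) were found for 68 members, some with several starts, 73 windows in all. On either strand, the motif of NRF1, GCGCATGCG, was in 8 of them (10.96%, against 1.75% of 32851 windows of all genes and 3.03% of 14632 windows of genes measured on these arrays). CCGGAAG, bound by ETS factors such as GABP, was in 17 (23.3%, against 8.86% and 15.1%), AAGATGGC, bound by YY1, in 9 (12.3%, against 2.75% and 3.88%), and GGGCGG, bound by Sp1, in 31 (42.5%, against 35.7% and 57.5%). The NRF1 motif was in the windows of Atp5g2, Atp5k, Atp5l, Cox6a1, Cycs, Ndufa8, Uqcr11 and Uqcrc1, whose log2 ratios in IEC ran from −0.062 to 0.68. A match describes the letters only. In the windows below, matches to these 4 motifs are in capitals. Cox7a1 (chr7:30183921-30184220, plus strand) is shown because it was measured in IEC alone, and its window held none of them, while Cox7a2 (chr9:79759804-79760103, minus strand) held the Sp1 motif. Cycs (chr6:50566520-50566819, minus strand) held the NRF1 and Sp1 motifs, and Uqcr11 (chr10:80406772-80407071, minus strand), the highest of complex III in IEC, the ETS and NRF1 motifs.
Cox7a1: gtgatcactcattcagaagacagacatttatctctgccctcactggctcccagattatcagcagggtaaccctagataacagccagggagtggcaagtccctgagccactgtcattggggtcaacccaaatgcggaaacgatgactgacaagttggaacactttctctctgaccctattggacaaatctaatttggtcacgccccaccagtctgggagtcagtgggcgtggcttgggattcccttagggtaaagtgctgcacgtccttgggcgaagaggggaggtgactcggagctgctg
Cox7a2: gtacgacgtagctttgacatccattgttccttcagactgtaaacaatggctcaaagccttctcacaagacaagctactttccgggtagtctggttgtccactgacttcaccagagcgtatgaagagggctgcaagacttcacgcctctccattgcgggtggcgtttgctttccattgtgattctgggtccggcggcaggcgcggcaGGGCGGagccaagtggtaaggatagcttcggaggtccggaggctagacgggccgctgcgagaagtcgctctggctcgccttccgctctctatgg
Cycs: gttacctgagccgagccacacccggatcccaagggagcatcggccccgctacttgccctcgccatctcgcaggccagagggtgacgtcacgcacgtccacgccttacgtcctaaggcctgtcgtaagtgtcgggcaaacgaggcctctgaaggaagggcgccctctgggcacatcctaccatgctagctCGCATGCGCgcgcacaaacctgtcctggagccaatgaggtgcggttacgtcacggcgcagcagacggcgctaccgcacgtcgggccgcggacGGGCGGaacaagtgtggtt
Uqcr11: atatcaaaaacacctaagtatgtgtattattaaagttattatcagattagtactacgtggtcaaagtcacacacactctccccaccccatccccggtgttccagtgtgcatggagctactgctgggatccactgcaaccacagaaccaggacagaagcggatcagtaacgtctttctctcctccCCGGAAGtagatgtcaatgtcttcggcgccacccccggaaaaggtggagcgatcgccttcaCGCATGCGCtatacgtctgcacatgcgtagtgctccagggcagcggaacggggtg

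The genes of these factors and their coactivators did not share a direction. Over 21 regulators of mitochondrial genes, the median log2 ratio was 0.035 in PP and 0.15 in IEC, with 14 of 21 above 0 in IEC. Nrf1 had signals of 129 and 132 in GF and colonized PP and of 75.1 and 76.0 in GF and colonized IEC. Gabpa, the DNA-binding subunit of GABP, had 453, 376, 289.6 and 184, the lowest regulator in both tissues, and Tfam, the packaging factor of mitochondrial DNA, had 435, 421, 374 and 361. The coactivator Ppargc1b had 159, 170.4, 395 and 742, and its relative Ppargc1a 14.5, 7.95, 187 and 233. Ppara, a receptor that controls fatty acid oxidation, had 18.2, 16.7, 277 and 323, with a log2 ratio of IEC over PP of 3.93 in GF mice, and that of Ppargc1a was at least 3.59, since its PP signals were under the floor. Nrf1 and Tfam were lower in IEC than in PP, with log2 ratios of −0.78 and −0.22 in GF mice, where the median of the respiratory chain genes was 0.89.

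Other mitochondrial genes were described by lists, whose colonized over GF ratios are given here for PP and then IEC. The 76 genes of the mitochondrial ribosome, which translates the subunits encoded by mitochondrial DNA, had a median log2 ratio of −0.12 in PP and 0.26 in IEC, with 66 above 0 in IEC. Among them Mrpl41 and Mrpl13 were highest in IEC at 0.70 and 0.65. The 44 assembly factors measured had medians of −0.12 and 0.12, and the complex I factor Ndufaf2 had the highest ratio in IEC, 0.94, from signals of 121 and 231. Genes of protein import had −0.085 and 0.15, with Tomm7, a small subunit of the outer membrane translocase, at 0.92 in IEC. By contrast, 17 genes of the citric acid cycle and pyruvate entry had medians of −0.16 in PP and −0.12 in IEC, with 11 of 17 below 0 in IEC, and Cs, which encodes citrate synthase, was at −0.38. Over 26 other genes of the inner membrane the medians were −0.13 and −0.0085, and the lowest in IEC were Nnt, the transhydrogenase, at −0.72 and Etfdh, which feeds electrons from fatty acid oxidation to ubiquinone, at −0.72.

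Outside mitochondria, 14 genes of glycolysis had medians of −0.20 in PP and 0.058 in IEC, where hexokinase Hk1 was at 1.05 from signals of 85.9 and 178. The 41 measured genes of the cytosolic ribosome had 0.014 and 0.20, with 38 above 0 in IEC, so a positive sign for most genes of a list in IEC was shared by genes with no part in respiration. Between tissues in GF mice, the order of medians was 1.17 for the citric acid cycle, 1.07 for other inner membrane genes, 0.89 for the respiratory chain, 0.51 for glycolysis, 0.43 for the mitochondrial ribosome, 0.33 for assembly factors, 0.27 for import, 0.077 for regulators and −0.35 for the cytosolic ribosome. The carrier Slc25a4, an isoform of the ADP/ATP exchanger best known from muscle, was the lowest of the inner membrane genes, at −2.36.

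**Figure D5:**
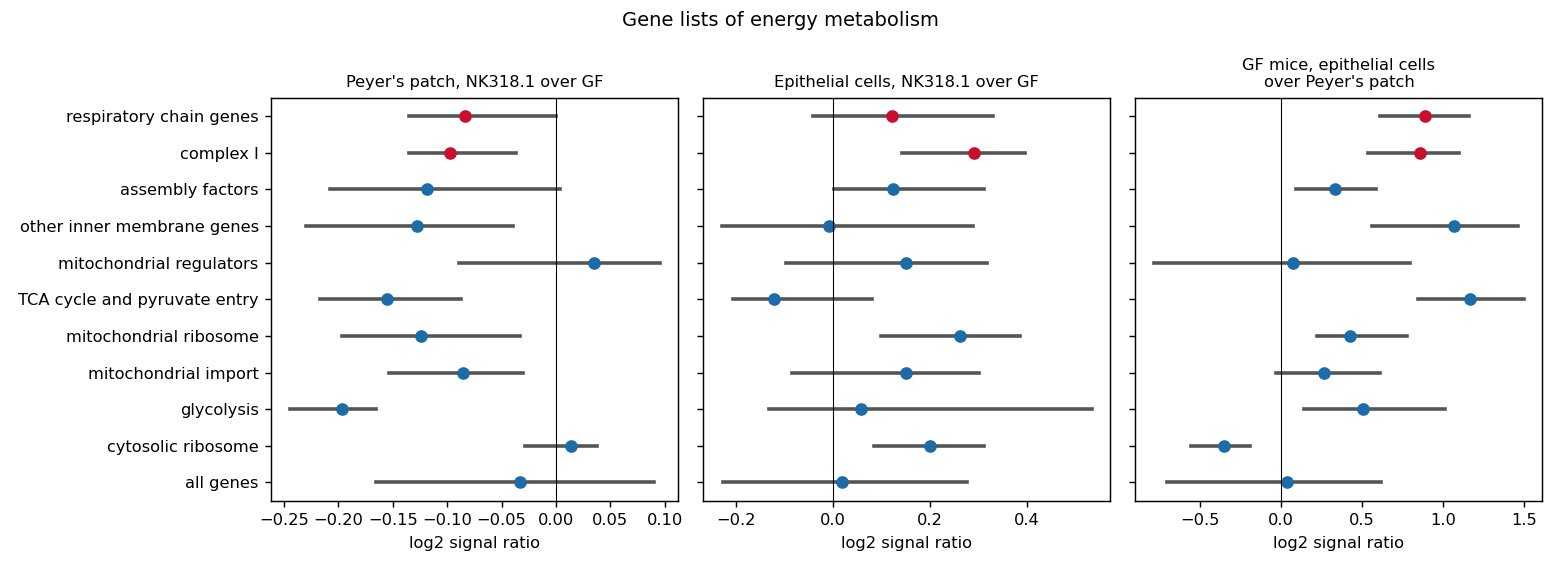
Median (points) and quartiles (bars) of the log2 signal ratio for gene lists of energy metabolism in 3 comparisons, with scales that differ between panels; red points are the respiratory chain and its complex I, and the lowest line gives all measured genes. In IEC (middle) complex I and the mitochondrial ribosome have medians of 0.29 and 0.26, while the citric acid cycle is at −0.12.

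For some members the probe sets did not give the same tissue ratio. Beside 1.05 in GF mice from its brightest probe set (signals of 2772 and 5723 in GF PP and IEC), Atp5c1 had −1.50 from a dim one (83.4 and 29.6). A gap of over 1 in a tissue ratio was also found for Cox5b, Cox8a, Ndufa12, Ndufab1, Ndufb2, Ndufb9, Ndufs4, Sdha, Uqcrq and Atp5j2, each in GF mice, colonized mice or both, mostly between a bright and a dim probe set. For Ndufa12 the brightest gave 3540.4 and 4289 in GF and colonized IEC and 1459 and 1325 in PP, and the dimmest 9.37 and 15.1 in IEC and 25.8 and 22.2 in PP. For these genes the values above are those of the brightest probe set.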

How the data were processed

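Total RNA of PP cells and IEC from GF and NK318.1 mice was measured on 4 Affymetrix arrays, 1 per group. Per the labels, the authors used MAS5 to make the deposited linear intensity of each probe set. The version was not given in the sources used here. R and limma are named in the study's methods. Trimmed means of the deposited intensity were 84.6 to 94.6, so the arrays were not scaled to an equal mean. No depth applies to arrays, and 1 array per group limits the precision.

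Of 45037 probe sets beside 64 controls, 9160 had no gene and 932 several, 10 of which name a member. Gene IDs of 34741 of the 34945 others matched the RefSeq table of GRCm38.p6. The 40th percentile of signal, as the median of the 4 arrays, gave a floor of 15.5, to which lower signals were raised. A gene was measured if either array lay over it, and its brightest probe set (mean log2 signal) stood for it. Ratios are log2, and counts used the 2-fold limit of the study alone, since an adjusted p-value needs replicates. Alternatives were median centring, quantile normalization, a lowess curve (fraction 0.3), no floor, floors at percentile 25 or 60, the mean over probe sets, leaving out less specific probe sets, a 1.5-fold limit and leaving out special isoforms. The procedure was tested on simulated data.

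Members and lists were chosen with earlier results of these data known. Named are the 2 highest and 2 lowest members of each complex in each tissue, isoform pairs, complex II, Cycs, X-linked members, members whose probe sets differ by over 1, and the extremes of each list. The subunits of complex I and complex V outside this rule (Ndufv1, Ndufv2, Ndufs1, Ndufs3, Ndufs7, Ndufs8 and the rest of the ATP synthase), Ndufb1, Tfam, Nrf1 and the muscle genes were chosen after their values were seen. A list of genes on mitochondrial DNA matched 0 probe sets. Correlations with protein length and identities between isoforms were not run. Python 3.11.15, numpy 2.4.6, pandas 2.3.3, statsmodels 0.14.6 and matplotlib 3.10.9 were used.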

Additional observations from a re-analysis of the deposited data

Results flagged for a closer look

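The medians of the members had opposite signs in the tissues when colonized mice were set against GF mice. They were −0.084 in PP and 0.12 in IEC over all members, −0.098 and 0.29 for complex I, −0.18 and 0.034 for complex II, −0.12 and 0.060 for complex III, −0.014 and 0.033 for complex IV, and −0.052 and 0.091 for complex V. Among the members, 29 lay below 0 in PP and above 0 in IEC by every measured probe set. Of all measured genes, 57.3% lay below 0 in PP and 52.4% above 0 in IEC. Those with both signs were not counted, so whether the 29 are more than the share of all genes is not known. Among the 29 members, 12 had several probe sets in each tissue, and 9 of these 12 belong to complex I. The rest of the 29 rested on a single measured probe set in each tissue. Complex I held 73 of the 159 measured probe sets of the members in PP and 73 of 161 in IEC. Brightest probe sets gave −0.20 and 0.40 for Ndufs8, a core subunit of complex I, −0.22 and 0.38 for Ndufc1, a small subunit of the same complex, and −0.20 and 0.31 for Uqcr10 of complex III. No test of the difference between PP and IEC was possible with 1 array per group. The median difference between 2 probe sets of a gene was 0.16 in PP and 0.30 in IEC. By the brightest probe set these 3 genes were further from 0, but they were named for their values, so this is no added support. The others of Uqcr10 gave −0.096 and −0.084 in PP and 0.089 and 0.20 in IEC. The other of Ndufc1 gave −0.16 and 0.36, and the 5 others of Ndufs8 ran from −0.31 to −0.11 and from 0.044 to 0.54. The medians of all members and of complexes II, III, IV and V in IEC, and those of complexes IV and V in PP, were smaller than the median difference between 2 probe sets of a member, 0.20 in IEC and 0.080 in PP. The opposite signs of complexes II, III and IV did not hold under every setting. Over all probe sets complex II had a median of −0.0995 in PP, with 3 above and 5 below 0, and of −0.0010 in IEC, with 4 above and 4 below 0. The medians of complexes III and IV changed sign with the processing, as given below.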

How the results depend on the processing

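No paired analysis was possible because groups of 1 array hold no pairs. Under all 200 recomputations the medians of the members and of each complex moved by less than the median difference between 2 probe sets of a gene. For ratios of colonized over GF mice this is a wide scale, 0.16 in PP and 0.30 in IEC. Every such median but that of complex II in PP was smaller than it, so a move within it could change the sign. Over all its probe sets, complex II in PP had a median of −0.0995, also smaller than this scale. Small medians changed sign in 5 of the 200 recomputations. Complex IV in PP went from −0.014 to 0.0029 with quantile normalization and 0.0050 with lowess. With quantile normalization complex III in IEC went from 0.060 to −0.00095 and complex IV in IEC from 0.033 to −0.00672, and without less specific probe sets the latter was −0.024. The number of members with a log2 ratio above 0 ranged from 16 to 25 in PP and from 52 to 62 in IEC, and in complex I from 5 to 10 and from 27 to 31, the 10 under quantile normalization. With a 1.5-fold limit, 3 members were higher in colonized IEC, where 9.31% of all genes were higher. Between tissues, 60 of 80 measured members were higher in IEC than in PP in GF mice and 68 of 80 in colonized mice. Of all genes, 3648 of 14036 and 4030 of 14031 were higher in IEC by this limit. Without less specific probe sets, 1 member was at least 2-fold lower in IEC than in PP in each state. Among single genes past 2-fold, the direction turned in 8 cases, all between tissues. In GF mice Atp5c1 had −0.23 with the mean over probe sets and −1.50 without less specific ones, which leaves a dim probe set, and under the latter Ndufa12 had −0.73, Ndufb2 −0.25 and Uqcrq −0.029. In colonized mice it gave Cox5b −0.54, Ndufa12 −0.52 and Ndufb2 −0.39. Quantile normalization moved the median of all genes between tissues in GF mice from 0.038 to 0.16 and that of the members from 0.89 to 0.93. A floor at the 60th percentile moved the median of all genes to −0.11 and no floor to 0.16.

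Depth does not apply here, and what limits the values is the lack of replicates. The difference in sex-linked genes between the pools touches every ratio of colonized to GF mice, and the gastric and acinar signals those of IEC. No array could be left out without losing the comparison. Ratios between PP arrays were narrower at low and at high signals than in the middle range. The SD of log2 ratios was 0.20 below a mean signal of 8 and 0.31 between 32 and 128. It was 0.23 between 512 and 2048 and 0.14 above 2048.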

Other observations

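Probe sets that name a member together with a near-identical copy stood outside the counts. Those of Ndufs5, Ndufb4, Ndufa11, Ndufs6 and Ndufab1 with signals over 100 on all arrays had log2 ratios of colonized over GF mice from −0.21 to −0.033 in PP and from 0.15 to 0.44 in IEC. Ndufs6 had signals of 404 and 363 in GF and colonized PP and of 788 and 1072 in GF and colonized IEC. Ndufa11 had 535 and 461 in PP and 955 and 1190.4 in IEC by its brighter shared probe set. These 6 bright probe sets of complex I genes had the signs of the complex in both tissues, but the dimmer shared probe sets did not all have them. The dimmer shared probe set of Ndufa11 gave 0.020 in PP and 0.22 in IEC. Among probe sets shared with a different gene, that of Ndufb2 gave −0.058 in PP and 0.39 in IEC. A measured probe set of Ndufa13 gave 0.22 in PP and −0.11 in IEC, opposite to the complex in both tissues.

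Parietal cells of the stomach are dense in mitochondria. Their proton pump subunits Atp4a and Atp4b had signals of 19.0 and 24.5, and of 36.9 and 39.2, in GF and colonized IEC, and the summed signal of 8 parietal genes was 905 and 985. Of the 6 measured genes on this list, 5 lay above 0 with a median log2 ratio of 0.30 over the 6. The list includes Cblif, which encodes gastric intrinsic factor and does not mark parietal cells alone. Cblif had 15.2, under the floor, and 55.5, so that its log2 ratio was at least 1.84. It was the only gene of the list at least 2-fold higher. The sum of 10 gastric mucosa genes was 434 and 36054. Pancreatic acinar genes had a median log2 ratio of 3.14 in IEC. The part of these cells in the ratios of the members was not tested.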
